A study of Mus musculus with 8 samples.

Results

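The genes described here load peptides onto MHC class I molecules or belong to the immunoproteasome, and were measured in enterocytes, the absorptive cells that line the small intestine. They were chosen by gene symbol from a list of 10: B2m, Tap1, Tap2, Tapbp, Psmb8, Psmb9, Psmb10, Psme1, Psme2 and H2-T23. A feature of the array (a probe set, which measures 1 transcript region) counted as a member where its annotation gave 1 symbol and that symbol was on the list. This gave 12 of the 18443 probe sets of the table, for 8 of 10401 genes. Psme2 and H2-T23 were annotated only on 3 probe sets that carry several symbols, so no value is given for them. Male C57BL/6 mice aged 2.5 to 3.0 months supplied the cells. IE-Cpr-null mice, which lack the NADPH-cytochrome P450 reductase in the intestinal epithelium, were set against WT littermates. No source used here names the Cre driver or the alleles that the littermates carry. There were 4 arrays for each genotype, with the RNA of 2 mice combined on every array, so that 8 mice stood behind each group and n = 4 counts pools. Each value is on a log2 scale with the WT median of its probe set taken away, so a value of 0 is the middle of WT and the level of expression itself is unknown. All differences below are IE-Cpr-null minus WT on the log2 scale.

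MHC class I molecules display peptides from inside the cell to cytotoxic T cells. The peptides are cut by the proteasome, carried into the endoplasmic reticulum by the TAP transporter, and placed on a class I heavy chain that is paired with beta-2 microglobulin. Under interferon-gamma, cells swap the catalytic subunits of the standard proteasome for the immunosubunits encoded by Psmb8, Psmb9 and Psmb10. In the gut, class I molecules on epithelial cells face the intraepithelial lymphocytes that sit between them.

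Tap1 and Psmb9 lie head to head in the MHC region. The largest differences among the member probe sets were those of Tap1 1416016_at and Psmb9 (both 0.36). Tap1 1448177_at and Tap1 1420274_at differed by only 0.02 and 0.03. The stretch between the annotated starts of Tap1 and Psmb9 is shown because it lies upstream of both genes. It covers chr17:34187331-34187555 (GRCm38.p6, + strand, 225 bases, from RefSeq), with the Psmb9 start before its first base and the Tap1 start after its last. The bases before the starts of Psmb8 (chr17:34198075-34198194, + strand) and B2m (chr2:122147527-122147686, + strand) are shown beside it as the members whose upstream bases held a motif match. Capitals mark matches to GAAANNGAA, a core of the interferon-stimulated response element, or to TTCNNNGAA, the gamma-activated sequence of interferon-gamma-induced promoters.
Psmb9 to Tap1: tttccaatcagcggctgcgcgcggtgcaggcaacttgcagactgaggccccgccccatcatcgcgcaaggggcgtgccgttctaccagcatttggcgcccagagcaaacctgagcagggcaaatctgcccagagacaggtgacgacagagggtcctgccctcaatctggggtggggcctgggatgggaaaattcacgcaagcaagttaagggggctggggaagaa
Psmb8: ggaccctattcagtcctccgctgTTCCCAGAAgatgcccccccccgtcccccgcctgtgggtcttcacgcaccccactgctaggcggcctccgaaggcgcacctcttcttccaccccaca
B2m: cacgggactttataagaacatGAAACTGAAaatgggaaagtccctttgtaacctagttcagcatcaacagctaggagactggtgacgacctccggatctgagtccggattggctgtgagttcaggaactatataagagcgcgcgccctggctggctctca

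Promoter windows of 250 bases before to 50 after the annotated start were held for 7 of the 8 measured members, and both motifs were searched on both strands. The motifs can overlap each other. The interferon-stimulated core was found in 2 of the 7 member windows (B2m and Psme1) and in 8.56% of all 32851 windows. The gamma-activated sequence was found in 1, Psmb8, and in 8.30% of all windows. The match of B2m began 139 bases before its start and that of Psmb8 began 97 bases before. The windows of Tap1 and Psmb9 held neither set of letters, which says only that these letters are not in those windows. Other letters were searched first, on both strands, and the 2 motifs shown were kept after those matches had been seen. GAAANNGAAA, a longer form of the interferon-stimulated core that overlaps it, was in 2 of the 7 member windows and 3.44% of all windows. TGACGT, the core of the cyclic AMP response element, was in 0 of the 7 and 7.51% of all. GGGNNNNNCC, an outline of the kappa B site, was in 4 of the 7 and 50.8% of all, and CCAAT, the CCAAT box, was in 4 of the 7 and 37.4% of all. Narrower forms of these letters were also searched and are not given.

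IE-Cpr-null array 1 stood apart from the other arrays of its group. Its mean over 12 probe sets of stroma and muscle markers was 4.19. That mean ran from -0.60 to -0.48 on IE-Cpr-null arrays 2 to 4, and from -0.25 to 1.71 in WT. Hepatocyte markers were high on IE-Cpr-null arrays 2 and 3 (means 6.06 and 3.77), where the remaining 6 arrays ran from -0.21 to 0.28. Acinar markers of the pancreas stood between -5.52 and -5.37 on IE-Cpr-null arrays 2 to 4, at -2.19 on array 1 and at -5.31 on WT array 3, while the other WT arrays lay between -0.62 and 1.80. Enterocyte markers (7 of 10 genes measured) varied little, from -0.07 to 0.03 over all 8 arrays, and their absolute level cannot be read from centred values. Nothing in the labels says that the pools differ in cell content, and the part of these transcripts in the results below was not tested except where a value without those arrays is given.

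No peptide loading or immunoproteasome transcript passed the test, and the values separated IE-Cpr-null arrays 2 to 4 from array 1. Psmb9, Tap1 (in 1 of its 3 probe sets), Psmb8 and Tap2 were higher on arrays 2, 3 and 4 than on any WT array. Array 1 lay within the WT range or below it. The mean over arrays 2 to 4 was 1.18-fold to 1.42-fold the WT mean in these probe sets. With array 1 included it was 1.10-fold to 1.29-fold. B2m differed little on any array. In limma with Benjamini-Hochberg adjustment over all 18443 probe sets, 0 of the 12 member probe sets passed an adjusted p of 0.05, where 0.0217% of all probe sets passed. At an unadjusted p under 0.05, 1 member was higher (2.92% of all probe sets) and 0 were lower (4.47%). In 0 members did the 2 groups fail to overlap, against 1.64% of all probe sets higher and 2.47% lower.

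**Figure D1:**
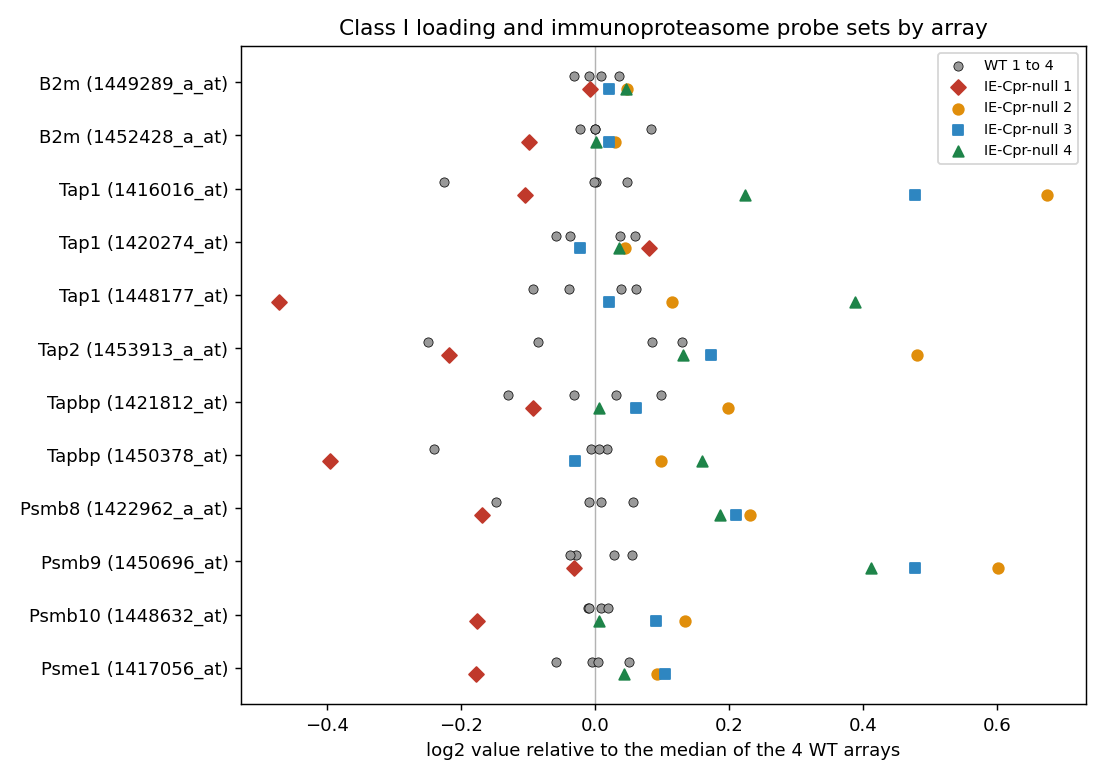
Log2 values of the 12 member probe sets (rows, gene and probe set) with the WT median at 0, and WT arrays as grey circles and each IE-Cpr-null array in its own colour and marker. Array 1 of IE-Cpr-null is the lowest of its group in 11 of the 12 rows, and Psmb9 spans 0.41 to 0.60 on the other arrays of that group.

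Psmb9 encodes the beta-1i subunit, which replaces the caspase-like subunit of the standard proteasome. Its WT values were 0.03, -0.03, -0.04 and 0.05 on arrays 1 to 4, while IE-Cpr-null arrays 1 to 4 stood at -0.03, 0.60, 0.48 and 0.41. Arrays 2, 3 and 4 of IE-Cpr-null lay well above WT and array 1 lay inside the WT range. The difference was 0.36 (SE 0.128, 1.28-fold, unadjusted p = 0.0237 and adjusted p = 0.558 in limma), the only member with an unadjusted p under 0.05. Without array 1 it was 0.49 (SE 0.0554, 1.41-fold, limma adjusted p = 0.0597), and without the hepatocyte-rich arrays 2 and 3 it was 0.19. With array weights, which let arrays that vary more count less, the difference was 0.39 and it passed (limma adjusted p = 0.0321), in a fit in which 4.02% of all probe sets passed. Over all 17 alternatives run for it, the adjusted p of Psmb9 ran from 0.0321 to 0.970.

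Psmb8 encodes the beta-5i subunit with chymotrypsin-like activity. Its WT values were -0.01, 0.01, -0.15 and 0.06 and its IE-Cpr-null values -0.17, 0.23, 0.21 and 0.19. Here too arrays 2 to 4 were above every WT array, and array 1 was below every one. The difference was 0.14 (SE 0.0975, limma adjusted p = 0.86), and 0.23 without array 1 (SE 0.055, limma adjusted p = 0.207). Without the hepatocyte-rich arrays it was 0.03.

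Psmb10 encodes beta-2i, the trypsin-like immunosubunit. Its WT values were close together, from -0.01 to 0.02, and its IE-Cpr-null values were -0.18, 0.13, 0.09 and 0.01. The values of IE-Cpr-null lay on both sides of WT, and the difference was 0.01 (SE 0.0676, 95% interval -0.15 to 0.17), and -0.0017 with each array centred on its median. Psme1 encodes the alpha subunit of the PA28 activator, a ring that opens the proteasome core and that interferon-gamma induces. Its WT values ran from -0.06 to 0.05 and its IE-Cpr-null values were -0.18, 0.09, 0.10 and 0.04, with a difference of 0.02 (SE 0.0679, 95% interval -0.14 to 0.18). Without array 1 the difference of Psmb10 was 0.07 and that of Psme1 was 0.08, each with an interval that included 0.

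The standard subunits offered a comparison within each array. Psmb6, Psmb5 and Psmb7 encode the standard beta-1, beta-5 and beta-2 subunits that Psmb9, Psmb8 and Psmb10 replace. Their differences were -0.05 (SE 0.0315), -0.06 (SE 0.0445) and -0.04 (SE 0.0461), with groups that overlapped. Psmb9 minus Psmb6 was -0.05 to 0.05 in WT, and the IE-Cpr-null arrays gave 0.03, 0.65, 0.49 and 0.47, so that 3 of 4 arrays exceeded every WT array. The difference of this value was 0.41 (exact two-sided permutation p = 0.0857, adjusted p = 0.171 over the 3 pairs). Psmb8 minus Psmb5 was -0.21 to 0.05 in WT, and the IE-Cpr-null arrays gave -0.05, 0.27, 0.17 and 0.28, a difference of 0.20 (exact permutation p = 0.114, adjusted p = 0.171). Psmb10 minus Psmb7 differed by 0.06 (exact permutation p = 0.629, adjusted p = 0.629). None of the 3 passed, and the smallest p that the 70 assignments of 4 against 4 arrays allow is 0.0286. An adjustment over 3 pairs of chosen genes cannot be set beside the limma adjustment over all probe sets.

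**Figure D2:**
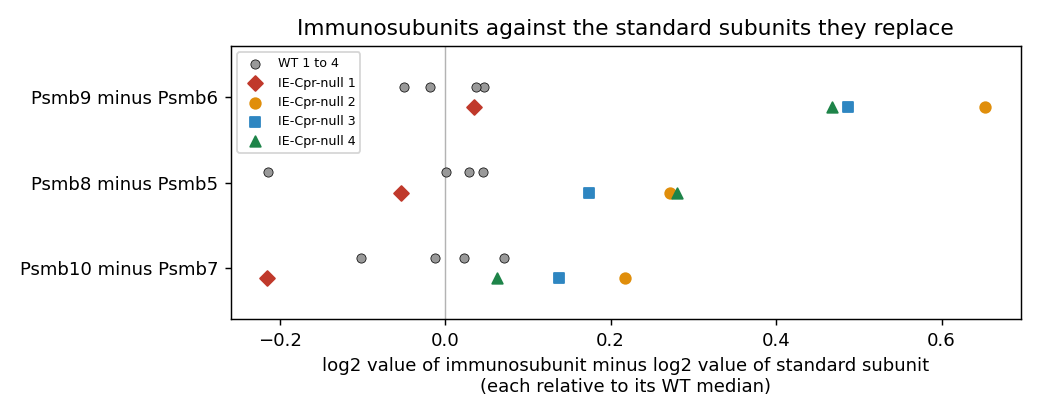
Log2 value of each immunosubunit minus that of the standard subunit it replaces (x axis), each relative to its WT median, for 3 pairs, with WT arrays as grey circles and IE-Cpr-null arrays in colour. For Psmb9 minus Psmb6, IE-Cpr-null arrays 2 to 4 lie between 0.47 and 0.65 and array 1 lies among the WT arrays.

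Tap1 encodes the first chain of the peptide transporter and was measured by 3 probe sets whose differences were unequal. For 1416016_at the WT values were -0.23, 0.00, 0.05 and -0.00 and the IE-Cpr-null values -0.10, 0.68, 0.48 and 0.22. Arrays 2 to 4 of IE-Cpr-null were above every WT array, and array 1 was inside their range. The difference was 0.36 (SE 0.162, 1.29-fold, limma adjusted p = 0.704), 0.50 without array 1 (SE 0.118, limma adjusted p = 0.205) and 0.10 without the hepatocyte-rich arrays. For 1448177_at the IE-Cpr-null values were -0.47, 0.11, 0.02 and 0.39 against -0.09 to 0.06 in WT, a spread far wider than in WT around a difference of 0.02 (SE 0.165). With array weights the difference of 1448177_at was 0.33 and that of 1416016_at 0.28, and neither passed (limma adjusted p = 0.164 and 0.148). For 1420274_at all 8 arrays lay between -0.06 and 0.08 (difference 0.03, SE 0.0422). Its value had the sign of the array's median over all probe sets on each of the 8. Those medians ran from -0.03 to 0.04, and whether this probe set reads Tap1 was not tested. The size of the Tap1 difference thus depended on the probe set and, for 1448177_at, on the weight given to each array.

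Tap2 encodes the partner chain of the transporter. Its WT values were -0.25, 0.09, -0.09 and 0.13 and its IE-Cpr-null values -0.22, 0.48, 0.17 and 0.13. IE-Cpr-null array 4 (0.132) was hardly above the highest WT array (0.130), and arrays 2 and 3 were clearly above it. The difference was 0.17 (SE 0.152, limma adjusted p = 0.86), and 0.29 without array 1 (SE 0.123, limma adjusted p = 0.443). Without the hepatocyte-rich arrays the direction turned, to -0.01.

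Tapbp encodes tapasin, which bridges the transporter and the empty class I molecule. For 1421812_at the WT values ran from -0.13 to 0.10 and the IE-Cpr-null values were -0.09, 0.20, 0.06 and 0.01 (difference 0.05, SE 0.0747). For 1450378_at the WT values ran from -0.24 to 0.02 and the IE-Cpr-null values were -0.40, 0.10, -0.03 and 0.16 (difference 0.01, SE 0.127). The lowest value of the second probe set was on IE-Cpr-null array 1 and the next lowest on WT array 3. Neither probe set separated the genotypes.

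B2m encodes beta-2 microglobulin, the light chain of every class I molecule. For 1449289_a_at all arrays lay between -0.03 and 0.05, with a difference of 0.03 (SE 0.0327, 95% interval -0.05 to 0.10). For 1452428_a_at they lay between -0.10 and 0.08, with a difference of -0.03 (SE 0.0435, 95% interval -0.13 to 0.07). These intervals were the narrowest of the members together with that of Tap1 1420274_at. B2m was the gene for which these arrays set the tightest bound on a difference in either direction.

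**Figure D3:**
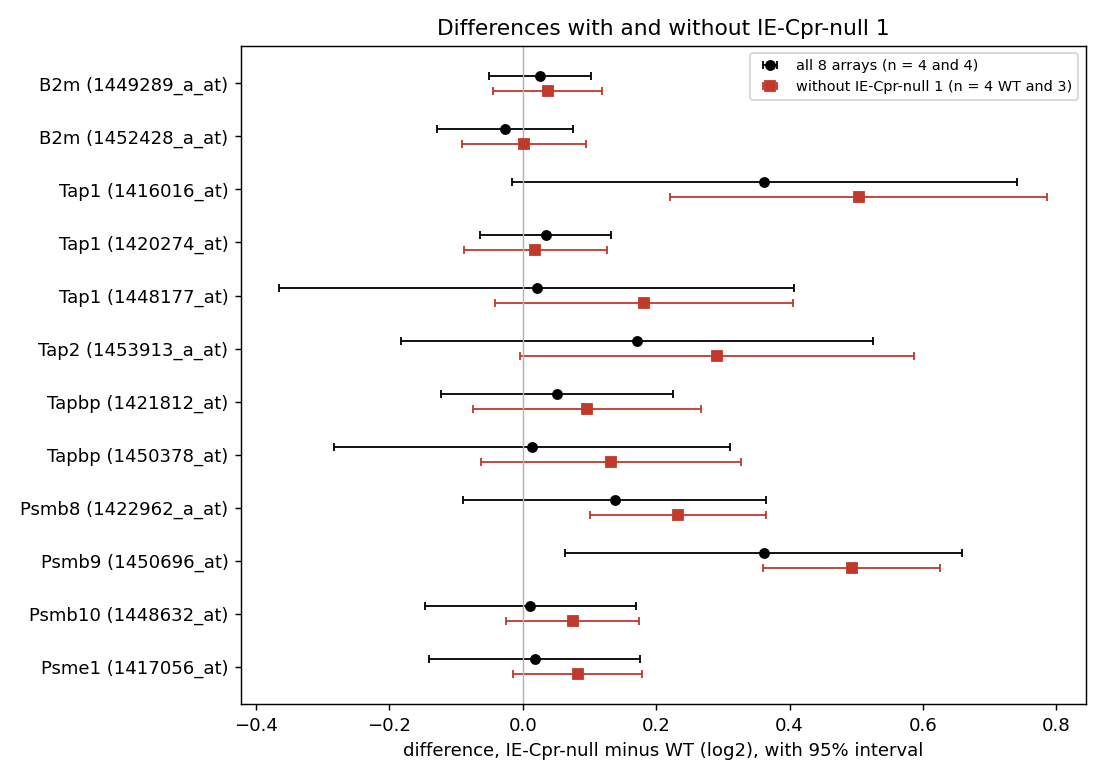
Difference of each member probe set, IE-Cpr-null minus WT (log2), with its 95% interval from limma, over all 8 arrays (black circles) and without IE-Cpr-null array 1 (red squares). Over all arrays 1 interval, that of Psmb9, lies above 0, and without array 1 those of Psmb9, Psmb8 and Tap1 1416016_at do.

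Over the 12 probe sets, 11 differences were above 0 and 1 was below. Their median was 0.03 against 0.02 over all probe sets, 57.5% of which were higher. Array 1 was the lowest of the 4 IE-Cpr-null arrays in 11 of the 12, and in 27.1% of all probe sets. Without it, the median over the members was 0.11 against 0.01 over all probe sets, and all 12 were higher against 56.3% of all. In 4 of the 12 (Psmb9, Tap1 1416016_at, Psmb8 and Tap2) the 3 remaining arrays were then above every WT array, against 5.00% of all probe sets, and 3 had an unadjusted p under 0.05 as higher (5.55% of all). None passed after adjustment in limma, where 0.0868% of all probe sets did. Since array 1 was the lowest of its group in 11 of the 12, leaving it out had to raise those differences. The higher values without array 1 are therefore no separate support for a difference between the genotypes. Without both muscle-rich arrays (WT array 2 and IE-Cpr-null array 1), every IE-Cpr-null array was above every WT array in 5 of the 12, against 6.72% of all probe sets. The probe set added to the 4 was B2m 1452428_a_at, whose lowest remaining IE-Cpr-null value was 0.0019 and highest remaining WT value 0.0007. Tap2 was apart by a similarly narrow gap (0.132 against 0.130). Without the hepatocyte-rich arrays, which leaves arrays 1 and 4, the median was -0.02. The member mean was 0.02 on WT array 2, where the muscle mean was 1.71, and -0.07 on WT array 3, where the acinar mean was -5.31. The part of these transcripts in the member values was not tested by such single arrays. In bulk RNA fewer cells of a type and less RNA per cell cannot be told apart.

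Markers of T cells and intraepithelial lymphocytes followed a similar order of arrays. Of 13 listed genes 11 were measured, by 12 probe sets, 11 of them higher, none past an adjusted p of 0.05. Their mean was -0.06, 0.21, 0.14 and 0.23 on IE-Cpr-null arrays 1 to 4 and -0.07 to 0.10 in WT. The member mean on the same arrays was -0.16, 0.23, 0.13 and 0.14, and -0.07 to 0.02 in WT. Natural killer and cytotoxic markers ranked the IE-Cpr-null arrays as the members did. Their means were -0.04, 0.12, 0.01 and 0.07 on arrays 1 to 4, and -0.05 to 0.05 in WT. The B cell and macrophage lists differed from this order. Means on IE-Cpr-null arrays 1 to 4 were 0.04, -0.21, 1.05 and -0.10 for B and plasma cell markers. Macrophage and dendritic cell markers were lower in 11 of 12 probe sets, with means of 0.07, -0.77, -0.20 and -0.45. Lymphocytes carry class I loading genes and immunosubunits too, and the part of any of these cell types in the member values was not tested.

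The class I heavy chains, listed with relatives such as Cd1d1, were measured for 10 of 19 listed genes by 21 probe sets. None passed an adjusted p of 0.05 in limma. At an unadjusted p under 0.05, 4 were higher (2.92% of all probe sets) and 0 were lower (4.47%). In 3 the groups did not overlap, all higher, against 1.64% of all probe sets. Those 3 were Cd1d1 1449131_s_at, a lipid-presenting relative (difference 0.21, SE 0.0556), H2-D1 1451683_x_at (0.19, SE 0.0692) and H2-K1 1451931_x_at (0.14, SE 0.0508). In the other Cd1d1 probe set, 1449130_at, the groups overlapped (0.22, SE 0.139). H2-D1 was covered by 8 probe sets with differences from 0.02 to 0.24, and H2-K1 by 4, from -0.01 to 0.29. All but 1 of these 12 are of a type whose probes can bind other class I genes, so that those cannot tell the classical heavy chains apart. The exception was H2-D1 1426324_at, with a difference of 0.24 (SE 0.121) and groups that overlapped. H2-M3, a nonclassical heavy chain that presents formylated peptides, had WT values of -0.29, -0.22, 0.53 and 0.22 and IE-Cpr-null values of 0.33, 0.71, 0.62 and 1.08. The groups overlapped through WT array 3, and the difference was 0.62 (SE 0.223, limma adjusted p = 0.565). The median over the 21 probe sets was 0.09, and 0.12 without IE-Cpr-null array 1. In that setting 6 of the 21 had every remaining IE-Cpr-null array above every WT array, against 5.00% of all probe sets.

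The folding and trimming partners in the endoplasmic reticulum showed no common direction. All 8 listed genes were measured by 19 probe sets, 14 higher and 5 lower, with a median of 0.07 and none past an adjusted p of 0.05. Erap1 encodes the aminopeptidase that trims peptides to the length that class I holds. It stood at 0.08, -0.14, -0.03 and 0.03 on the WT arrays and at -0.40, -0.57, -0.11 and -0.23 on the IE-Cpr-null arrays, a difference of -0.31 (SE 0.102, unadjusted p = 0.0164 and limma adjusted p = 0.507). It was low on 3 of the 4 IE-Cpr-null arrays and overlapped WT through array 3. Pdia3, the disulphide isomerase of the loading complex, differed by 0.08 (SE 0.0474), Calr, the chaperone calreticulin, by -0.00 to 0.03 over 3 probe sets, Canx, the chaperone calnexin, by 0.07 to 0.20 over 3, and Tapbpl, a tapasin relative that edits peptides, by 0.05 and 0.08. Over all 8 arrays the groups overlapped in all of these. Without IE-Cpr-null array 1, every remaining IE-Cpr-null array was above every WT array in 2 of the 19, against 5.00% of all probe sets. They were Tapbpl 1451544_at (difference 0.16, SE 0.0375) and Pdia3 (0.11, SE 0.0407).

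The standard subunits and other activators were measured for 7 of 7 listed genes by 13 probe sets, 3 higher and 10 lower, with a median of -0.05 and none past either threshold. Psme3 encodes the nuclear PA28 gamma activator, and its 3 probe sets differed by -0.05 to 0.03. Without IE-Cpr-null array 1, Pomp was the 1 probe set of the 13 with every remaining IE-Cpr-null array above WT (difference 0.17, SE 0.0429). The share over all probe sets in that setting was 5.00%. The regulators of class I were measured for 12 of 14 listed genes by 19 probe sets, 13 higher and 6 lower, none past either threshold, with a median of 0.03. Of these 19, Socs1 was the 1 probe set wholly above WT without IE-Cpr-null array 1. It stood at 0.031, 0.13 and 0.96 on arrays 2 to 4 (difference 0.37, SE 0.217). The highest WT value was 0.030, so array 2 was hardly above it. Nlrc5, the class I transactivator, was not analysed here. Irf1, an interferon-gamma-induced factor that acts on Tap1 and Psmb9, stood at -0.15, -0.01, 0.01 and 0.03 on the WT arrays and at -0.19, 0.42, 0.24 and 0.01 on the IE-Cpr-null arrays, a difference of 0.15 (SE 0.128, limma adjusted p = 0.86). Arrays 2 and 3 were high, and array 1 was the lowest of all 8.

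Among interferon-gamma response genes outside the members, Ciita and Gbp2 parted the genotypes on all 4 arrays and the others did not. Of 14 listed genes 11 were measured by 17 probe sets, 13 higher and 4 lower. In limma 4 had an unadjusted p under 0.05 as higher (2.92% of all probe sets), and none passed an adjusted p of 0.05. Every IE-Cpr-null array was above every WT array in 4 of these probe sets, both of Ciita and both of Gbp2, against 1.64% of all probe sets, and the groups of the other 13 overlapped. Ciita, the class II transactivator, was at 1.47, 2.26, 2.81 and 2.09 on IE-Cpr-null arrays 1 to 4 and at -0.54 to 0.57 in WT in its leading probe set, a difference of 2.15 (SE 0.362, limma adjusted p = 0.199). The leading Gbp2 probe set, for a guanylate-binding protein, differed by 1.09 (SE 0.215, limma adjusted p = 0.252), and Igtp, an immunity-related GTPase, by 0.57 (SE 0.31) with -0.30 on array 1 and 1.25 on array 2. Without IE-Cpr-null array 1, Igtp too was wholly above WT, so that 5 of the 17 probe sets were, against 5.00% of all. The list mean was 0.28, 0.68, 0.58 and 0.42 in IE-Cpr-null and -0.14 to 0.13 in WT.

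Class II genes were on a different scale. All 9 probe sets of the 6 measured genes were higher in every IE-Cpr-null array than in any WT array, against 1.64% of all probe sets. None passed an adjusted p of 0.05 in limma. In the probe sets of smallest p H2-Ab1 differed by 1.19 (SE 0.23), H2-DMb2 by 0.70 (SE 0.155) and H2-DMa by 1.21 (SE 0.269). WT itself was spread widely, with class II means of -0.59, -0.30, 0.51 and 0.29 on arrays 1 to 4. On IE-Cpr-null array 1, where the member mean was -0.16, the class II mean was 0.88, against 1.02 to 1.15 on arrays 2 to 4. Type I interferon response genes were not separated by genotype, with 13 probe sets for 10 of 14 listed genes, 5 higher and 8 lower, a median of -0.05 and 0 past either threshold in limma. Their mean was -0.29 on array 1 and 0.34 on array 2 of IE-Cpr-null, and -0.01 and -0.02 on arrays 4 and 3. In WT it was 0.29 on array 1 and ran from -0.09 to -0.00 on arrays 2 to 4. Ifit3, an interferon-induced antiviral gene, differed by -0.28 (SE 0.149), Rtp4 by 0.29 (SE 0.25) in its leading probe set and Ifit2 by -0.19 (SE 0.179).

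**Figure D4:**
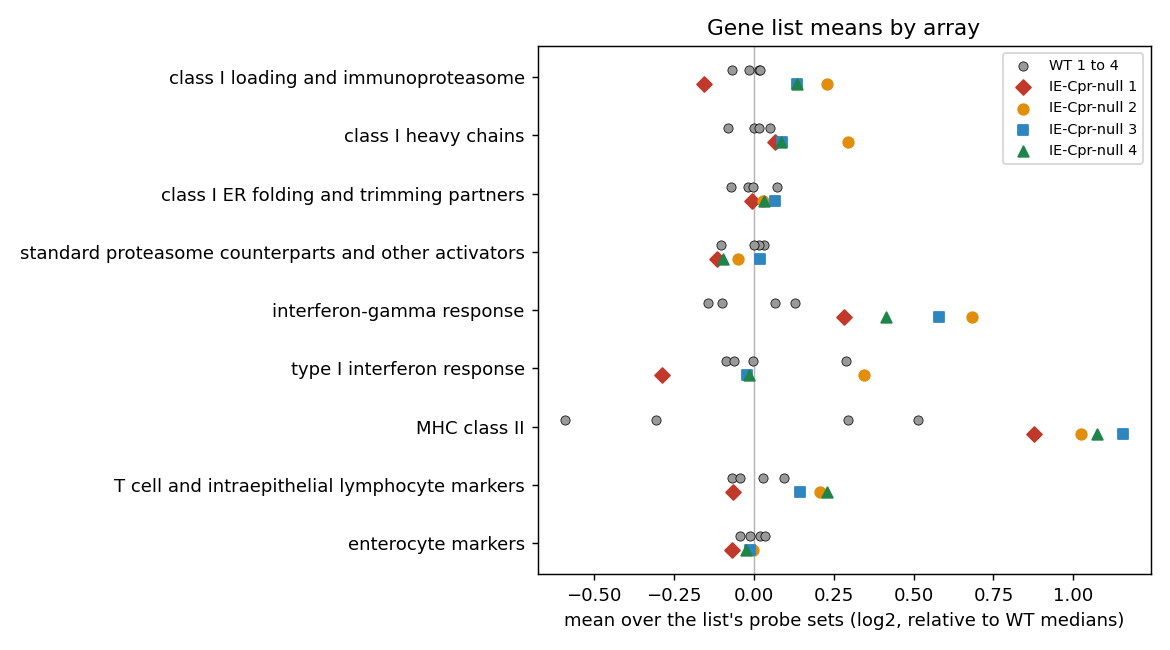
Mean log2 value over the probe sets of each gene list, relative to WT medians, with WT arrays as grey circles and IE-Cpr-null arrays in colour. Array 1 of IE-Cpr-null is low for the class I loading members (-0.16) and for the type I interferon list (-0.29), but high for MHC class II (0.88).

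The 5 genes whose pattern was most like the mean of the 8 member genes were Frmd8 (Pearson r = 0.987 over the 8 arrays), Spsb3 (0.976), Alad (0.971), Thnsl2 (0.967) and Mtmr4 (0.965). Of the 10393 other genes, 72 had an r above 0.9. Frmd8 stood at -0.19, 0.32, 0.19 and 0.21 (-0.05 to 0.07 in WT), and Alad, the porphobilinogen synthase of haem synthesis, at -0.21, 0.35, 0.21 and 0.08 on IE-Cpr-null arrays 1 to 4. These correlations describe 8 arrays that share labelling and normalization.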

How the data were processed

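Biotin-labelled RNA was hybridised to arrays, and the authors deposited log2 values made with GCRMA, per the submitters' processing notes, which give no version or settings. In all 18443 probe sets the WT median was 0 (tolerance 1e-05), so each had also been centred, and no filter on level could be set. The sample titles gave the groups and the numbers of the pools. limma 3.58.1 in R 4.3.3 (lmFit and eBayes, two-sided) was fitted to the whole table, with Benjamini-Hochberg adjustment and a threshold of 0.05. The scripts were tested on simulated data. The number of arrays limits the precision. Members and gene lists were chosen with earlier results of these data known. The genes named are all members, preset class I partners and genes of the class I lists past the threshold. Also named are genes of those lists whose groups did not overlap, over all arrays or without IE-Cpr-null array 1. The rest are the 3 genes of smallest p in each interferon and class II list, and the 5 most like the members. Alternatives were another normalization, array weights, a robust prior, a block, filters on probe sets, a minimum of 1.5-fold and arrays left out. Same-numbered arrays had deviations that correlated by -0.06, -0.04, 0.26 and 0.13, so numbers were not taken as pairs. Symbols came from the platform annotation (16689 probe sets with 1, 616 with several, 1138 with none), and sequences from RefSeq (GRCm38.p6).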

Additional observations from a re-analysis of the deposited data

Results flagged for a closer look

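Of the 58 sets of 4 arrays examined (each member probe set and each gene list mean, per genotype), 5 held an array farther from the rest than Dixon's 95% critical value for 4 samples allows, where chance marks about 1 in 20. Psmb8 was low on IE-Cpr-null array 1 at -0.17, with the other arrays of that group within a narrow range. Tapbp 1450378_at was low on WT array 3 at -0.24. The class I heavy chain mean was high on IE-Cpr-null array 2 at 0.30. On IE-Cpr-null array 1 the stroma and muscle mean stood at 4.19 and the acinar mean at -2.19, each the highest of its group.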

How the results depend on the processing

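No member probe set passed the adjusted threshold in limma except Psmb9 with array weights, which gave 1 member. Over all probe sets 4 passed as reported, 741 with array weights, 7 among the more variable probe sets (SD over the median SD), 1 with quantile normalization, 1 with the replicate block, and from 1 to 16 when 1 array was left out (16 without IE-Cpr-null array 1, 7 without IE-Cpr-null array 2, 1 without WT array 1, 2 or 4). The member count of groups that do not overlap was 0 as reported, and 5 without the muscle-rich arrays (WT array 2 and IE-Cpr-null array 1). It ran from 0 to 4 when 1 array was left out, the 4 without IE-Cpr-null array 1. The share of all probe sets wholly above WT rose too, from 1.64% as reported to 6.72% without the muscle-rich arrays and 5.00% without IE-Cpr-null array 1. That array was the lowest of its group in 11 member probe sets, so a rise of their differences without it was fixed in advance. The member median was 0.03 as reported, 0.12 without the muscle-rich arrays, 0.15 over the 6 members among the more variable probe sets, and -0.02 without the hepatocyte-rich arrays.

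Psmb9, Tap1 1416016_at, Psmb8, Tap1 1420274_at and B2m 1449289_a_at kept their sign in every alternative run. For Tap1 1420274_at, whose values had the sign of each array's median over all probe sets, a bearing on Tap1 itself was not tested. Signs turned without the hepatocyte-rich arrays for Psmb10 (-0.088), Psme1 (-0.065), Tap1 1448177_at (-0.033), Tap2 (-0.014), Tapbp 1421812_at (-0.036) and Tapbp 1450378_at (-0.063). With median centring Psmb10 was -0.0017, and without the muscle-rich arrays B2m 1452428_a_at was 0.025. When 1 array was left out, B2m 1452428_a_at ran from -0.041 to 0.0020, Psmb10 from -0.029 to 0.075, Psme1 from -0.012 to 0.082, Tap1 1448177_at from -0.10 to 0.18, Tapbp 1421812_at from -0.00069 to 0.096 and Tapbp 1450378_at from -0.053 to 0.13. The cause of these turns was not tested. The replicate numbers were not taken as pairs, since only 2 of the 4 same-numbered correlations exceeded 0.1. As a hint from the data, 4 of 8 arrays correlated best with the array of their own number, and the replicate block left Psmb9 at 0.36 (limma adjusted p = 0.61).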
